A study of Homo sapiens with 3 samples.

Results

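DNA synthesis-high OVCAR3 cells are the cells of each culture with the largest share of their mRNA in genes that copy DNA. For every kept cell with at least 10000 unique molecular identifiers (UMIs, each standing for 1 captured mRNA molecule), the UMIs of HELLS, PCLAF, TYMS, RRM2, MCM3, MCM5, PCNA, GINS2, CDC6 and CLSPN were summed and divided by all UMIs of the cell, and the cells in the top 10% by this score within a library were taken. They were 587 of 5871 such cells treated with DMSO, 798 of 7983 treated with RAC1i and 644 of 6437 treated with Combo, or 2029 of 20291 in all. The other 18262 cells of the same libraries are called the rest.

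OVCAR3 is a line grown from a high-grade serous ovarian carcinoma (HGSOC). The cultures were exposed for 48 hours to DMSO, the solvent, to 50 μM RAC1i (NSC23766, an inhibitor of the small GTPase RAC1), or to 50 μM RAC1i with 5 μM EZH2i (GSK126, an inhibitor of the histone methyltransferase EZH2), which is called Combo. Each condition was 1 droplet library of 3′ mRNA ends, so a difference between conditions has no replicate check and no p-value is given. The cells were also selected on the same counts that are described here, so every value of synthesis-high cells against the rest is a description. Levels are UMIs summed over cells per 1000000 UMIs (CPM). Ranges in parentheses are exact 95% intervals that cover counting error only.

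Before a cell copies its genome, the origin recognition complex, CDC6 and CDT1 load the MCM helicase on origins. CDC45 and the GINS complex then switch the helicase on, primase and the DNA polymerases extend the new strands around the sliding clamp PCNA, and ribonucleotide reductase and thymidylate synthase supply the building blocks. Many of these genes are transcribed by E2F factors, which are released when cyclin-dependent kinases inactivate the retinoblastoma protein, so that their mRNAs build up from late G1 into S phase. Genes of chromosome segregation follow later, in G2 and mitosis.

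The cells were first described by cell type markers, which do not bear on the DNA synthesis label. All 8 epithelial and ovarian tumour markers (KRT7, KRT8, KRT18, EPCAM, CDH1, MUC16, MSLN and WT1) were detected in the synthesis-high cells of every library, at a summed 3409 CPM under DMSO, 2204 under RAC1i and 2269 under Combo. In the rest the sums were 3245, 1854 and 2079 CPM. The 14 markers of blood, vessel, fibroblast and muscle cells summed to 9.07, 9.36 and 8.0 CPM in synthesis-high cells, of which COL1A1 gave 5.30, 4.59 and 5.38. In the rest these 14 summed to 9.25, 8.58 and 8.55 CPM. The synthesis-high cells held a median of 31742 UMIs under DMSO, 26824 under RAC1i and 35820 under Combo, against 30870.5, 25364 and 29740 in the rest. They were thus deeper than the rest in all 3 libraries, and most so under Combo. Their median mitochondrial share was 5.74%, 1.71% and 1.40%, against 6.36%, 1.41% and 1.37%. No barcode of a synthesis-high cell occurred in the synthesis-high cells of another library, and at most 30 barcodes were shared between any pair of whole libraries. Doublets were neither called nor removed.

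The class is the upper end of a ranking, and the score had no gap at the limit. A cut by rank among so many cells falls between near values almost by construction. Whether the class holds a separate population was therefore not tested. In DMSO the lowest synthesis-high cell had 1579 score UMIs per 1000000 UMIs and the highest cell of the rest had 1578. In RAC1i these were 917 and 917, and under Combo 887 and 887. Cells within 10% of the limit numbered 461 under DMSO, 586 under RAC1i and 498 under Combo, of which 201, 252 and 198 were synthesis-high, or 34.2%, 31.6% and 30.7% of that class. The DMSO scores spread far wider than the treated ones. Their 10th and 90th percentiles were 133 and 1578 per 1000000 UMIs, against 177 and 917 under RAC1i and 162 and 887 under Combo.

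**Figure D1:**
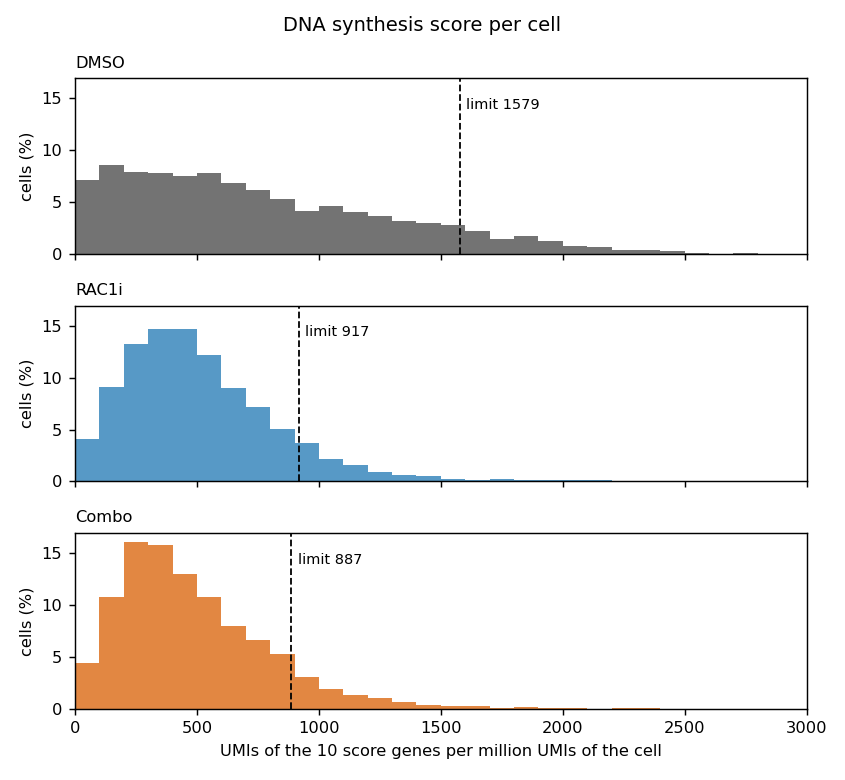
Share of cells (%, vertical axis) by score (UMIs of the 10 score genes per 1000000 UMIs of the cell, in steps of 100, horizontal axis) for cells with at least 10000 UMIs of the DMSO, RAC1i and Combo libraries; dashed lines mark the limit of the top 10%. The limits were 1579, 917 and 887, and the share of cells falls across each of them.

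Since the limit was set within each library, equal shares of cells were taken from cultures with unequal scores. At the DMSO limit, 80 of 7983 RAC1i cells qualified, or 1.00% (0.795 to 1.25). In Combo 56 of 6437 qualified, or 0.87% (0.658 to 1.13). With every cell thinned to 10000 UMIs and the limit read again from DMSO, the shares were 11.9% under DMSO, 1.44% under RAC1i and 1.38% under Combo.

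The 10 score genes are listed here by role, as the values that chose the cells. HELLS, PCLAF, TYMS and RRM2 are among the top genes that the study lists for a cluster rich in cell cycle and DNA repair genes. That cluster was found with these same libraries, and HIST1H4C, HIST2H2AC, HIST1H1E, MKI67, TUBB and TOP2A are listed beside them. The direction of those genes here is therefore not independent evidence. Of the genes that load, activate and clamp the helicase and polymerases, MCM3, a subunit of the helicase, was at 186 CPM against 68.6 under DMSO, 139.7 against 55.9 under RAC1i and 144 against 56.6 under Combo, where the first value of each pair is that of synthesis-high cells. MCM5, the neighbouring subunit, was at 57.3 CPM against 22.8 under DMSO, 18.4 against 6.29 under RAC1i and 19.5 against 7.82 under Combo. The loader CDC6 was at 58.1 CPM against 21.6 under DMSO, 70.6 against 36.5 under RAC1i and 68.5 against 33.9 under Combo. GINS2, a subunit of the helicase activator, was at 93.4 CPM against 36.3 under DMSO, 56.1 against 21.7 under RAC1i and 64.5 against 26.0 under Combo. The sliding clamp PCNA was at 148 CPM against 50.1 under DMSO, 50.2 against 15.0 under RAC1i and 51.8 against 17.5 under Combo. MCM3, MCM5, GINS2 and PCNA were thus lower in both treated libraries than under DMSO, and CDC6 was not. The treated synthesis-high cells are high against their own library only. Set against the rest of DMSO they lay lower in MCM5, 18.4 and 19.5 CPM against 22.8. In PCNA they lay close to it, 50.2 and 51.8 against 50.1, and in MCM3, GINS2 and CDC6 above it.

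Of the others, PCLAF, which binds PCNA at the fork, was at 308 CPM against 124 under DMSO, 351 against 127 under RAC1i and 313 against 112 under Combo. It was not lower in the treated synthesis-high cells than under DMSO and supplied 29.6% of their score UMIs under RAC1i, against 16.5% under DMSO. TYMS, which makes thymidylate, was at 306 CPM against 125 under DMSO, 168 against 60.9 under RAC1i and 191 against 61.9 under Combo. RRM2, the regulated subunit of ribonucleotide reductase, was at 305 CPM against 88.9 under DMSO, 159 against 78.4 under RAC1i and 125 against 53.1 under Combo. The ratio of synthesis-high cells to the rest for RRM2 was 3.43 (3.32 to 3.54) under DMSO, 2.03 (1.96 to 2.11) under RAC1i and 2.35 (2.25 to 2.45) under Combo, so that it was the score gene with the largest ratio under DMSO and the second smallest, after CDC6, in both treated libraries. HELLS, a chromatin remodeller tied to DNA methylation, was at 247 CPM against 85.2 under DMSO, 118 against 41.4 under RAC1i and 116 against 43.0 under Combo. CLSPN, the adaptor that carries the replication checkpoint signal to CHEK1, was at 162 CPM against 50.5 under DMSO, 55.8 against 15.0 under RAC1i and 64.2 against 18.0 under Combo, and its ratio of 3.21, 3.73 and 3.56 was the largest of the 10 under RAC1i and Combo.

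**Figure D2:**
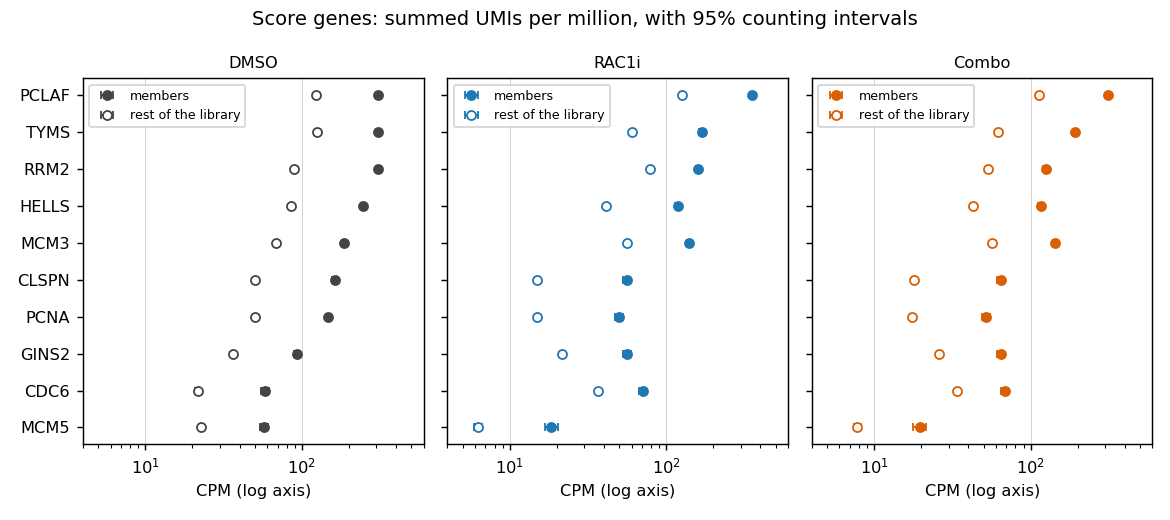
Summed UMIs per 1000000 UMIs (CPM, logarithmic horizontal axis) of the 10 score genes in synthesis-high cells (filled circles, named members in the plot) and in the rest of the same library (open circles) for DMSO, RAC1i and Combo, with exact 95% Poisson intervals. The filled circles lie to the right for all genes by the way the cells were chosen; the smallest ratio is that of CDC6 under RAC1i, 1.93, and the largest that of CLSPN under RAC1i, 3.73.

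A cell can enter the top 10% partly by sampling of its few score UMIs, whose median was 59 under DMSO, 31 under RAC1i and 39 under Combo. The UMIs of every cell were therefore split at random into 2 parts, with equal odds of either part for each UMI. The cells were chosen on one part and the levels were read from the other. The summed score genes were then 2.46 (2.42 to 2.50) times higher than in the rest under DMSO, 2.20 (2.16 to 2.25) under RAC1i and 2.31 (2.26 to 2.35) under Combo, against 2.78, 2.60 and 2.69 without the split. Of the cells chosen on one part, 76.5%, 72.7% and 74.4% were also chosen on all UMIs, which include that part. With each cell thinned to 10000 UMIs, a UMI of PCNA was seen in 76.3% of synthesis-high cells and 35.4% of the rest under DMSO, in 33.8% and 12.3% under RAC1i, and in 34.8% and 15.0% under Combo. Before thinning the shares were 96.6% and 67.4%, 59.3% and 29.6%, and 68.5% and 35.3%. A culture of 1 line has no cell type that lacks PCNA, so the share that free RNA gives could not be measured.

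Most promoters of the score genes held a sequence feature that the score itself did not use. The score genes were picked as replication genes, many of which E2F factors transcribe, so the feature is not independent evidence. The E2F motif was searched as TTTCCCGC, TTTCGCGC, TTTGCCGC and TTTGGCGC on both strands, in RefSeq windows of 250 bases before to 50 bases after each start on GRCh38.p14. Windows were found for 9 of the 10 score genes, all but MCM5, and 8 of the 9 held a match, RRM2 being without one. A gene counted if any of its windows held a match. PCLAF and PCNA each had a further window without one, and the match of CDC6 lay after the start. The following stretches run from base -80 to base -1 before the start (for MCM6, a stretch of the same length further upstream), 5′ to 3′ on the gene's strand, with matches in capitals. They are shown for the 5 score genes with a match wholly inside the last 80 bases and for E2F1 and MCM6, which are described further on.
HELLS: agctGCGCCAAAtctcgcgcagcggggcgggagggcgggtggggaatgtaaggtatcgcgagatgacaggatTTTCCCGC
PCLAF: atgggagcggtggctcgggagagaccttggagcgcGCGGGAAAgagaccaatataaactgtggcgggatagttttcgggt
TYMS: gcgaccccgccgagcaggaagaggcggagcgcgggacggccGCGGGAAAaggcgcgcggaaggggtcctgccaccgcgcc
PCNA: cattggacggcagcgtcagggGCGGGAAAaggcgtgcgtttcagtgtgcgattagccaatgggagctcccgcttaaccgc
GINS2: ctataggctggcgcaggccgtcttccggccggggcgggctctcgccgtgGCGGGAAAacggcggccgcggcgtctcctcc
E2F1: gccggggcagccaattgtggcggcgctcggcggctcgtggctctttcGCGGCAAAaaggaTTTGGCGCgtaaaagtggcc
MCM6: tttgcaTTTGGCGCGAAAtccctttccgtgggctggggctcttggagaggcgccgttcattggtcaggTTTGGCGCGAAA

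These stretches lie upstream of an annotated start, just before it except for MCM6, and on the plus strand at chr10:94545708-94545787 for HELLS and chr18:657573-657652 for TYMS. They lie on the minus strand at chr15:64381442-64381521 for PCLAF, chr20:5126623-5126702 for PCNA, chr16:85688955-85689034 for GINS2, chr20:33686386-33686465 for E2F1 and chr2:135876522-135876601 for MCM6. HELLS and E2F1 each hold 2 matches. MCM6 holds 4, since the word TTTGGCGC overlaps its neighbour on the other strand at both places. Of the leading genes outside the score described further on, E2F1, EZH2, MCM6 and CENPU held a match. BRCA1, PRIM1, MCM10, HIST2H2AC, CHAF1A, CHEK1 and WDHD1 held none, and POLD3, MCM4, FANCI and DSCC1 had no window. A match is a description of letters and not a bound site.

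The word was also frequent in replication genes outside the score, in 32 of 90 with a window, or 35.6%. The origin licensing and helicase list held it in 11 of 20 genes, polymerases and fork in 7 of 23, nucleotide synthesis in 3 of 15, checkpoint and repair in 6 of 18, chromatin assembly in 5 of 14 and the G2 and mitosis list in 3 of 27. Among 5730 genes outside the score with a window and at least 10 CPM in every library, 7.56% held it, as did 3.99% of all 27305 genes with a window. The cell cycle homology region of mitotic promoters, searched as TTTGAA on both strands, gave another order, with matches in 19 of 27 G2 and mitosis genes, 9 of 90 replication genes, none of 9 score genes, 13.8% of the 5730 genes and 18.2% of all.

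Genes outside the score that differed between synthesis-high cells and the rest were a small share of those measured. In DMSO 242 of 8412 genes with at least 10 CPM were over 1.5-fold higher (2.88%) and 60 over 1.5-fold lower (0.713%). In RAC1i 187 of 7547 were higher (2.48%) and 77 lower (1.02%), and under Combo 168 of 7558 were higher (2.22%) and 79 lower (1.05%). The median log2 ratio over all genes was 0.01, 0.07 and 0.07 (log2 of CPM plus 1, as for all log2 values). The number of higher genes depended on where and how the cells were chosen. It was 268 under DMSO, 514 under RAC1i and 346 under Combo with the top 5%, 258 under DMSO, 86 under RAC1i and 111 under Combo with the top 20%, and 169 under DMSO, 345 under RAC1i and 366 under Combo with the score from MCM3, MCM5, PCNA, GINS2 and CDC6 alone, so that the order of the libraries was not kept. The split of calls depended on the scaling. With TMM totals it was 126 higher and 258 lower under DMSO, 110 higher and 150 lower under RAC1i and 114 higher and 135 lower under Combo. With DESeq2 size factors it was 229 higher and 56 lower, 114 higher and 145 lower and 117 higher and 135 lower. TMM moved the median of all genes by -0.22 under DMSO and by -0.10 under RAC1i. Of the higher genes, 133 were shared by RAC1i and Combo (71.1% and 79.2% of each list), 91 by DMSO and RAC1i (37.6% and 48.7%) 99 by DMSO and Combo (40.9% and 58.9%) and 85 by all 3, of 6876 genes with the level in every library. Of the lower genes, 49 were shared by RAC1i and Combo (63.6% and 62.0%), 8 by DMSO and RAC1i (13.3% and 10.4%), 3 by DMSO and Combo (5% and 3.80%) and 3 by all 3. None of these overlaps was set against the overlap expected from the numbers of calls. Of the 85 higher genes, 45 belong to the replication lists, 4 to G1/S control, 3 to the histones, none to G2 and mitosis and 33 to no list. Before any CPM minimum, these lists hold 106, 24, 22 and 32 genes. Their shares of the 6876 genes were not computed.

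Ranked by the smallest of the 3 ratios among genes with at least 20 CPM, the leading gene was E2F1, the activator of the G1/S programme, at 118 CPM against 45.7 under DMSO, 32.8 against 12.8 under RAC1i and 37.6 against 15.3 under Combo. EZH2, the methyltransferase that the second drug of Combo blocks, came next at 65.3 CPM against 28.9 under DMSO, 26.2 against 11 under RAC1i and 32.5 against 13.2 under Combo. Its ratio was 2.26 (2.12 to 2.41) under DMSO, 2.38 (2.17 to 2.60) under RAC1i and 2.47 (2.27 to 2.69) under Combo, 3 intervals that overlap. Then came BRCA1, which acts in repair by homologous recombination, the primase PRIM1, the helicase subunits MCM6 and MCM4 with the origin firing factor MCM10, the histone HIST2H2AC and the polymerase delta subunit POLD3. The other leading genes were CHAF1A of the chromatin assembly factor, the checkpoint kinase CHEK1, FANCI of the Fanconi anaemia pathway, the kinetochore gene CENPU, the clamp loader gene DSCC1 and WDHD1, a fork scaffold. The smallest ratio among the 15 was that of CENPU under RAC1i, 1.97 (1.84 to 2.10). At the other end HIST1H4H had ratios of 0.589, 0.379 and 0.395 under DMSO, RAC1i and Combo. It was followed by the transcription factor SOX4 (0.671, 0.614 and 0.662), the coactivator CITED2 (0.678, 0.527 and 0.518), TXNIP, a glucose-responsive inhibitor of thioredoxin (0.638, 0.697 and 0.674), the ephrins EFNA1 (0.670, 0.719 and 0.568) and EFNB2 (0.718, 0.554 and 0.495) and the mitotic kinase PLK1 (0.726, 0.550 and 0.665). YPEL5, HIST1H2AC and ENC1 completed the lowest 10.

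The helicase and licensing list stood high as a group. Here and in the other lists, highest and lowest are by the middle of a gene's 3 ratios. Its median log2 ratio was 0.76 under DMSO, 0.58 under RAC1i and 0.65 under Combo, and 16 of 22 under DMSO, 10 of 21 under RAC1i and 12 of 21 under Combo were over 1.5-fold higher, beside 2.88%, 2.48% and 2.22% of all genes. In all lists a gene was counted if it reached 10 CPM in either sum. Some, such as CDC45 under RAC1i and Combo and UHRF1 in all 3 libraries, reached it in synthesis-high cells alone. Their ratio was then above 1 by construction. Others, such as HIST2H2BE in all 3 libraries and CXCL2 and CXCL3 under Combo, reached it in the rest alone. For those the ratio was below 1 by construction. Without this minimum, replication genes outside the score had medians of 0.81 under DMSO, 0.59 under RAC1i and 0.60 under Combo. CDC45, which joins the MCM ring to make the active helicase, was at 60.5 CPM against 21.4 under DMSO, 13.3 against 4.28 under RAC1i and 14.5 against 5.09 under Combo, a ratio of 2.83 (2.65 to 3.03) under DMSO, 3.12 (2.72 to 3.56) under RAC1i and 2.86 (2.51 to 3.24) under Combo. MCM6 was at 90.4 CPM against 35.5 under DMSO, 36.8 against 15.0 under RAC1i and 37.2 against 16.9 under Combo. ORC2, a subunit of the complex that stays on chromatin through the cycle, was at 21.9 CPM against 24.7 under DMSO, 16.5 against 19.2 under RAC1i and 14.7 against 17.5 under Combo, a ratio of 0.887, 0.863 and 0.839. Of the other subunits, ORC3 had ratios of 1.24, 1.43 and 1.25, ORC4 0.941, 1.00 and 1.04, ORC5 1.2, 0.959 and 0.966 and ORC6 1.66, 1.23 and 1.23. ORC1, the subunit that is made and destroyed with each cycle, had 1.95, 2.40 and 2.37. MCM7 differed between libraries, with 2.01 (1.94 to 2.09) under DMSO but 1.23 (1.19 to 1.28) under RAC1i and 1.26 (1.21 to 1.30) under Combo.

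The polymerase and fork list had medians of 0.90 under DMSO, 0.51 under RAC1i and 0.57 under Combo, with 21 of 27 under DMSO, 9 of 22 under RAC1i and 11 of 23 under Combo over 1.5-fold higher, beside 2.88%, 2.48% and 2.22% of all genes, and none that much lower, beside 0.713%, 1.02% and 1.05%. PRIM1, which lays the RNA primer, was at 62.1 CPM against 28.4 under DMSO, 35.1 against 15.6 under RAC1i and 45.1 against 18.7 under Combo. FEN1, which trims Okazaki fragments, was at 161 CPM against 67.4 under DMSO, 103 against 74.9 under RAC1i and 118 against 80.4 under Combo, and its ratio of 2.38 (2.29 to 2.48) under DMSO was 1.38 (1.32 to 1.44) and 1.47 (1.41 to 1.53) in the treated libraries. POLE3, a histone-fold subunit of polymerase epsilon, was the lowest at 39.6 CPM against 29.8 under DMSO, 96.0 against 88.4 under RAC1i and 100.1 against 88.1 under Combo. In RAC1i and Combo the rest already held POLE3 at a higher level than the synthesis-high cells of DMSO.

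Of the 5 replication lists, the nucleotide list had the most even medians between libraries, at values of 0.48 under DMSO, 0.55 under RAC1i and 0.49 under Combo. RRM1, the large subunit of ribonucleotide reductase, was at 113 CPM against 62.9 under DMSO, 64.8 against 30.2 under RAC1i and 70.2 against 31.8 under Combo, a ratio of 1.80, 2.14 and 2.21, which was larger in the treated libraries, while that of its partner RRM2 was smaller there. DUT, which clears dUTP, had ratios of 1.75, 1.94 and 1.90, and the thymidine kinase TK1 1.54, 1.67 and 1.77. IMPDH2, of guanine nucleotide synthesis, was the lowest at 99.9 CPM against 86.6 under DMSO, 128 against 125 under RAC1i and 159 against 148 under Combo.

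Checkpoint and repair genes had medians of 0.94 under DMSO, 0.81 under RAC1i and 0.81 under Combo, and 20 of 22 under DMSO, 11 of 16 under RAC1i and 12 of 16 under Combo were over 1.5-fold higher, beside 2.88%, 2.48% and 2.22% of all genes. BRCA1 was at 68.5 CPM against 29.5 under DMSO, 45.7 against 20.5 under RAC1i and 49.3 against 22.3 under Combo. CHEK1, the kinase of the replication checkpoint, was at 35.8 CPM against 17.8 under DMSO, 50.7 against 23.2 under RAC1i and 51.5 against 23.8 under Combo, one of few replication genes with a higher level in the treated libraries. The kinase ATR, which activates CHEK1, had ratios of only 1.13 (1.07 to 1.19) under DMSO, 1.45 (1.36 to 1.54) under RAC1i and 1.28 (1.19 to 1.37) under Combo. EXO1, a nuclease of mismatch repair and end resection, had 3.12 (2.79 to 3.48) under DMSO, 1.88 (1.64 to 2.15) under RAC1i and 1.98 (1.72 to 2.26) under Combo.

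The chromatin assembly and DNA methylation list had medians of 0.95 under DMSO, 0.66 under RAC1i and 0.64 under Combo, with 12 of 15 under DMSO, 9 of 14 under RAC1i and 8 of 14 under Combo over 1.5-fold higher, beside 2.88%, 2.48% and 2.22% of all genes. It is a broad list that also holds EZH2, SLBP and the kinetochore gene CENPU. UHRF1, which brings DNMT1 to newly made DNA, was at 28.4 CPM against 9.14 under DMSO, 13.3 against 5.29 under RAC1i and 11.3 against 4.01 under Combo, a ratio of 3.10 (2.8 to 3.43) under DMSO, 2.51 (2.20 to 2.86) under RAC1i and 2.83 (2.44 to 3.27) under Combo. DNMT1 itself, the maintenance methyltransferase, had 1.64, 1.59 and 1.46. SSRP1, of the FACT histone chaperone, was close to equal at 198 CPM against 195 under DMSO, 225 against 205 under RAC1i and 196 against 179 under Combo. Over all 106 replication genes outside the score the median was 0.84 under DMSO, 0.63 under RAC1i and 0.61 under Combo, and 76 of 103 under DMSO, 47 of 90 under RAC1i and 50 of 91 under Combo were over 1.5-fold higher and none over 1.5-fold lower. Of all genes outside the score, 2.88%, 2.48% and 2.22% were that much higher and 0.713%, 1.02% and 1.05% that much lower. After thinning to 10000 UMIs a synthesis-high cell held a median of 78 UMIs of these genes under DMSO, 48 under RAC1i and 52 under Combo, against 45, 34 and 35 in the rest.

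**Figure D3:**
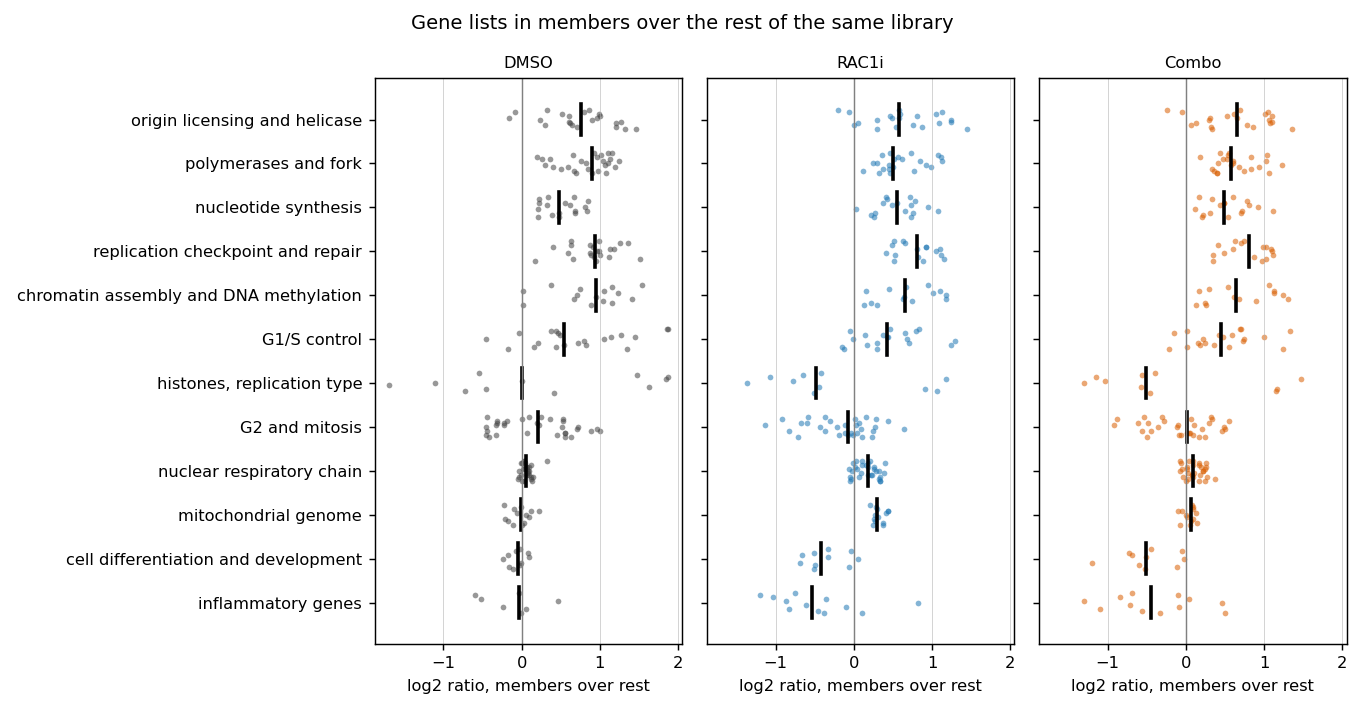
Log2 ratio of CPM plus 1 in synthesis-high cells over the rest of the same library (horizontal axis) for the genes of 12 lists (rows) with at least 10 CPM, under DMSO, RAC1i and Combo, with synthesis-high cells named members; points are genes, spread vertically for display only, and bars are list medians. The 5 replication lists have medians to the right of 0 in every library, between 0.48 and 0.95, and the histone list splits into genes on both sides.

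The G1/S control list had medians of 0.54 under DMSO, 0.43 under RAC1i and 0.45 under Combo, and 10 of 21 under DMSO, 7 of 19 under RAC1i and 8 of 20 under Combo were over 1.5-fold higher, beside 2.88%, 2.48% and 2.22% of all genes. CCNE2, a cyclin that drives entry into S phase, was at 19.4 CPM against 4.55 under DMSO, 4.10 against 1.89 under RAC1i and 6.04 against 2.42 under Combo, and the repressor E2F7, which shuts the programme down, was at 17 CPM against 3.95 under DMSO, 3.26 against 1.39 under RAC1i and 3.73 against 1.66 under Combo. Both reached 10 CPM only in the synthesis-high cells of DMSO. Their ratios there were 4.26 (3.74 to 4.83) and 4.30 (3.75 to 4.93). RBL1, a relative of the retinoblastoma protein that is itself an E2F target, had 2.18, 2.63 and 2.8, and MYBL2, which hands over to the mitotic programme, 1.46, 1.79 and 2.00. The G1 cyclin CCND1 was at 168 CPM against 188 under DMSO, 489.8 against 533 under RAC1i and 364 against 422 under Combo, a ratio of 0.889 (0.857 to 0.923) under DMSO, 0.919 (0.901 to 0.937) under RAC1i and 0.862 (0.842 to 0.882) under Combo, and the kinase CDK6 had 0.723, 0.963 and 1.01. CCND3, another G1 cyclin, had 1.43, 1.30 and 1.35 and its kinase CDK4 1.30, 1.13 and 1.14.

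Replication-type histone genes stood on both sides of the rest, with medians of 0.01 under DMSO, -0.48 under RAC1i and -0.51 under Combo. Of the genes with at least 10 CPM, 6 of 11 under DMSO, 3 of 10 under RAC1i and 3 of 10 under Combo had a ratio above 1. Over 1.5-fold higher were 4 of 11 under DMSO, 3 of 10 under RAC1i and 3 of 10 under Combo, beside 2.88%, 2.48% and 2.22% of all genes, and over 1.5-fold lower 3 of 11 under DMSO, 4 of 10 under RAC1i and 3 of 10 under Combo, beside 0.713%, 1.02% and 1.05%. Most of their mRNA has no poly(A) tail and is missed by capture of poly(A) ends, so the values cover the polyadenylated part only. HIST1H4C was at 708 CPM against 254 under DMSO, 696 against 370.3 under RAC1i and 853 against 381 under Combo, a ratio of 2.79 (2.73 to 2.84) under DMSO, 1.88 (1.85 to 1.91) under RAC1i and 2.24 (2.20 to 2.28) under Combo. The linker histone HIST1H1E was at 85.4 CPM against 27.0 under DMSO, 11.1 against 4.37 under RAC1i and 18.7 against 6.08 under Combo, a ratio of 3.17, 2.54 and 3.07, and HIST2H2AC had 3.76, 2.14 and 2.28. In contrast HIST1H4H, another histone H4 gene, was at 12.4 CPM against 21.1 under DMSO, 24.9 against 65.8 under RAC1i and 22.1 against 55.9 under Combo, a ratio of 0.589 (0.513 to 0.673) under DMSO, 0.379 (0.347 to 0.412) under RAC1i and 0.395 (0.36 to 0.432) under Combo. HIST2H2BE was at 8.42 CPM against 29.6 under DMSO, 8.25 against 18.4 under RAC1i and 4.75 against 11.8 under Combo, and HIST1H2AC had ratios of 0.680, 0.732 and 0.666. HIST1H1C, a linker histone, was above the rest under DMSO at 1.34 (1.30 to 1.38) and below it under RAC1i at 0.698 (0.669 to 0.728) and Combo at 0.724 (0.695 to 0.754). Histone genes are near copies of each other, and how reads were assigned between copies was not tested.

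The G2 and mitosis list held genes on both sides. Its median was 0.21 under DMSO, -0.08 under RAC1i and 0.02 under Combo, with 6 of 32 under DMSO, 1 of 31 under RAC1i and 0 of 31 under Combo over 1.5-fold higher, beside 2.88%, 2.48% and 2.22% of all genes. In turn 0 of 32 under DMSO, 7 of 31 under RAC1i and 3 of 31 under Combo were over 1.5-fold lower, beside 0.713%, 1.02% and 1.05% of all genes. With TMM totals these medians were -0.00, -0.18 and -0.08. With the score from MCM3, MCM5, PCNA, GINS2 and CDC6 alone the DMSO median was -0.14, and with thinned cells the RAC1i median was 0.05, so that the sign depended on the processing in all 3 libraries. The proliferation antigen MKI67 was at 279.5 CPM against 171 under DMSO, 85.8 against 63.0 under RAC1i and 94.1 against 63.6 under Combo, and NDC80, of the outer kinetochore, had 1.57, 1.62 and 1.44. CDK1, the kinase that drives entry into mitosis, was at 199 CPM against 102 under DMSO, 112 against 105 under RAC1i and 116 against 100.2 under Combo, a ratio of 1.96 (1.89 to 2.03) under DMSO but 1.06 (1.02 to 1.11) under RAC1i and 1.16 (1.11 to 1.21) under Combo. AURKB, of the chromosomal passenger complex, had 2.04, 1.2 and 1.40. On the other side CCNB1, the mitotic cyclin, was at 117 CPM against 161 under DMSO, 77.7 against 105 under RAC1i and 78.8 against 101 under Combo, a ratio of 0.728 (0.697 to 0.761) under DMSO, 0.741 (0.705 to 0.778) under RAC1i and 0.780 (0.743 to 0.819) under Combo. DEPDC1 was at 37.2 CPM against 43.9 under DMSO, 17.5 against 39.5 under RAC1i and 16.5 against 32.2 under Combo and HMMR, a spindle gene, at 71.1 CPM against 71.1 under DMSO, 50.3 against 95.4 under RAC1i and 48.2 against 89.5 under Combo. HMMR was level under DMSO, 1.00 (0.944 to 1.06), and lower in both treated libraries, 0.527 (0.495 to 0.559) and 0.539 (0.506 to 0.573).

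Cells high in mitotic genes were mostly in the rest. Cells in the top 10% by summed G2 and mitosis genes made up 2.21% (1.18 to 3.76) of synthesis-high cells under DMSO, 3.13% (2.04 to 4.59) under RAC1i and 3.42% (2.15 to 5.13) under Combo. In the rest they were 10.9%, 10.8% and 10.7%. Leaving these cells out on both sides, a comparison added after the data were seen, takes mitotic counts mostly from the rest and so raises the ratio by construction. The list median was then 0.54 under DMSO, 0.27 under RAC1i and 0.41 under Combo. Over single cells thinned to 10000 UMIs, the median of summed mitotic UMIs was 34 in synthesis-high cells and 21 in the rest of DMSO, 20 and 16 under RAC1i, and 21 and 17 under Combo. The mean went the same way under DMSO (35.6 and 29.9) but the other way under RAC1i (22 and 23.6) and Combo (22.7 and 23.2), where the SD over cells of the rest was 23.8 and 23.6.

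**Figure D4:**
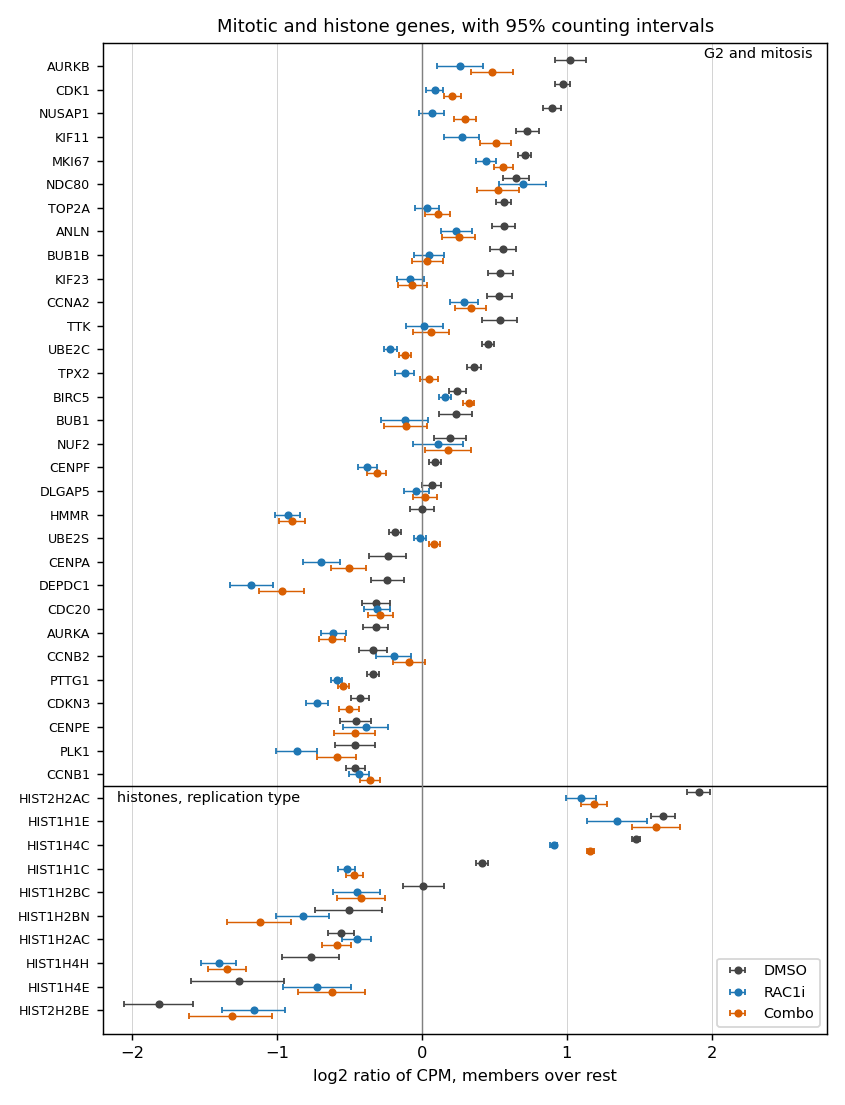
Log2 ratio of CPM in synthesis-high cells (members) over the rest (horizontal axis) for genes of the G2 and mitosis list and of the histone list (rows) with at least 10 CPM in every library, coloured by library, with exact 95% intervals of the ratio. CDK1 lies at 1.96-fold under DMSO and close to 1 under RAC1i, HMMR lies near 1 under DMSO and well below it in both treated libraries, and HIST2H2AC and HIST2H2BE mark the opposite ends of the histone list under DMSO.

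The synthesis-high cells also differed among themselves. MCM3, MCM5, PCNA, GINS2 and CDC6 gave a median of 29.2% of a cell's score UMIs under DMSO, 27.3% under RAC1i and 29.1% under Combo. The cells were divided at that median into helicase-leaning cells and others, whose score UMIs lay more in HELLS, PCLAF, TYMS, RRM2 and CLSPN. The division rests on few UMIs per cell, so it sorts cells only roughly. The helicase-leaning cells had a median of 30901 UMIs under DMSO, 28035 under RAC1i and 38478 under Combo, against 32534, 25960 and 33257 in the others, and the part of depth in what follows was not tested. In DMSO 24 of 8353 genes outside the score were over 1.5-fold higher in them and 18 lower, under RAC1i 161 and 54 of 7663, and under Combo 212 and 72 of 7659. DTL, an E2F target of the G1/S border, was higher in the helicase-leaning cells by a ratio of 1.56 (1.28 to 1.91) under DMSO, 1.43 (1.1 to 1.86) under RAC1i and 1.79 (1.38 to 2.35) under Combo, MCM10 by 1.34 (1.17 to 1.55) under DMSO, 1.5 (1.25 to 1.81) under RAC1i and 1.69 (1.40 to 2.05) under Combo and MSH6 by 1.52 (1.37 to 1.67) under DMSO, 1.35 (1.18 to 1.54) under RAC1i and 1.44 (1.27 to 1.64) under Combo. TK1 was lower, with 0.874 (0.815 to 0.936) under DMSO, 0.815 (0.748 to 0.888) under RAC1i and 0.73 (0.677 to 0.788) under Combo, and HIST1H4C had 0.738 (0.713 to 0.764) under DMSO, 0.855 (0.829 to 0.883) under RAC1i and 0.891 (0.866 to 0.916) under Combo. The G2 and mitosis list had medians of -0.39 under DMSO, 0.03 under RAC1i and 0.05 under Combo, beside 0.01, 0.11 and 0.11 over all genes, a difference between libraries that was not tested. In DMSO the mitotic phosphatase gene CDKN3 had a ratio of 0.611 (0.560 to 0.666) and CCNB2 one of 0.627 (0.548 to 0.716). The differentiation list had medians of 0.05 under DMSO, -0.51 under RAC1i and -0.60 under Combo and the inflammatory list 0.09 under DMSO, -0.53 under RAC1i and -0.51 under Combo. PAX8 had ratios of 0.947 (0.896 to 1.00) under DMSO, 1.76 (1.58 to 1.95) under RAC1i and 1.84 (1.63 to 2.07) under Combo. For the replication genes outside the score the medians were 0.02 under DMSO, 0.19 under RAC1i and 0.20 under Combo. These genes, like the ones named from G2 and mitosis, were picked after their values were seen.

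Differentiation genes, which stood high in both treated cultures, had a lower median in synthesis-high cells than in the rest there. The list of cell differentiation and development genes had median log2 ratios to DMSO of 2.54 under RAC1i and 2.26 under Combo in synthesis-high cells and 3.05 under RAC1i and 3.06 under Combo in the rest. Its median log2 ratios of synthesis-high cells to the rest were -0.05 under DMSO, -0.42 under RAC1i and -0.51 under Combo. Of its 10 genes, none was over 1.5-fold lower under DMSO, 2 were under RAC1i and 4 under Combo, beside 0.713%, 1.02% and 1.05% of all genes. HES1, a repressor downstream of Notch, was at 29.5 CPM against 29.7 under DMSO, 143 against 231 under RAC1i and 108 against 251 under Combo, a ratio of 0.994 (0.908 to 1.09) under DMSO, 0.62 (0.598 to 0.643) under RAC1i and 0.431 (0.414 to 0.449) under Combo. ID1, an inhibitor of differentiation factors, was at 573 CPM against 579 under DMSO, 2634 against 3314 under RAC1i and 2282 against 3106 under Combo, and GADD45B, a stress gene, at 11.5 CPM against 13.1 under DMSO, 381 against 602 under RAC1i and 345 against 559.7 under Combo. The metallothioneins of the list did not share this. MT1X was at 48.9 CPM against 57.8 under DMSO, 1831 against 1766 under RAC1i and 2601 against 2654 under Combo and MT2A had ratios of 0.895, 0.955 and 0.927. The study chose this list on these libraries, so its direction is not independent evidence.

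The inflammatory list had medians of -0.04 under DMSO, -0.54 under RAC1i and -0.45 under Combo, with 1 of 7 under DMSO, 6 of 12 under RAC1i and 5 of 12 under Combo over 1.5-fold lower, beside 0.713%, 1.02% and 1.05% of all genes. CXCL2 and CXCL3 under Combo reached 10 CPM in the rest alone, so their ratio was below 1 by construction. Fewer genes reached it under DMSO, so these medians and counts cover unlike sets of genes. The chemokine CXCL1 was at 44.4 CPM against 45.5 under DMSO, 273 against 459 under RAC1i and 162 against 262 under Combo, a ratio of 0.975 (0.906 to 1.05) under DMSO, 0.595 (0.579 to 0.61) under RAC1i and 0.616 (0.595 to 0.637) under Combo. CXCL2 was at 7.38 CPM against 6.58 under DMSO, 10.6 against 20.2 under RAC1i and 4.13 against 11.7 under Combo and CXCL3 at 3.77 CPM against 4.52 under DMSO, 13.9 against 25.4 under RAC1i and 7.33 against 16.8 under Combo, low levels at which the counts set wide intervals, 0.353 (0.284 to 0.435) for CXCL2 under Combo and 0.436 (0.37 to 0.510) for CXCL3. CXCL8 was at 5.19 CPM against 3.36 under DMSO, 15.9 against 37.8 under RAC1i and 13.5 against 14.6 under Combo, a ratio of 1.54 (1.23 to 1.92) under DMSO, 0.42 (0.376 to 0.467) under RAC1i and 0.925 (0.819 to 1.04) under Combo. The cytokine IL6 was at 1.09 CPM against 3.04 under DMSO, 70.8 against 146 under RAC1i and 45.0 against 81.2 under Combo, a ratio of 0.36 (0.218 to 0.562) under DMSO, 0.485 (0.461 to 0.510) under RAC1i and 0.554 (0.519 to 0.59) under Combo. FLG, which encodes filaggrin, went the other way at 282 CPM against 203 under DMSO, 115 against 64.6 under RAC1i and 66.5 against 48.1 under Combo, a ratio of 1.39 (1.35 to 1.43) under DMSO, 1.78 (1.71 to 1.86) under RAC1i and 1.38 (1.31 to 1.46) under Combo. Over single cells thinned to 10000 UMIs, the summed list had a median of 6 UMIs in synthesis-high cells and 9 in the rest of RAC1i, and 4 and 6 under Combo, with 3 and 3 under DMSO.

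Of the lineage and stemness genes, PAX8 stood on opposite sides of the rest under DMSO and in the treated libraries. PAX8, the transcription factor of Müllerian epithelium, was at 278 CPM against 370.0 under DMSO, 68.3 against 53.5 under RAC1i and 55.7 against 47.4 under Combo, a ratio of 0.751 (0.73 to 0.773) under DMSO, 1.28 (1.21 to 1.35) under RAC1i and 1.17 (1.11 to 1.25) under Combo. SOX2, a stem cell factor, was at 66.2 CPM against 79.1 under DMSO, 14.8 against 16.2 under RAC1i and 11.4 against 14.1 under Combo, and the surface marker CD24 at 397 CPM against 436 under DMSO, 229 against 236 under RAC1i and 193 against 215 under Combo. ALDH1A1, a dehydrogenase used as a stemness marker, was at 22.1 CPM against 19.1 under DMSO, 2.85 against 2.26 under RAC1i and 2.53 against 1.83 under Combo, a ratio of 1.16 (1.04 to 1.28) under DMSO, 1.27 (0.958 to 1.65) under RAC1i and 1.38 (1.02 to 1.84) under Combo. The oviductal glycoprotein OVGP1 was at 0.109 CPM against 0.151 under DMSO, 7.85 against 10.7 under RAC1i and 4.75 against 7.78 under Combo. SIRT7, a nuclear sirtuin, was at 40.0 CPM against 44.5 under DMSO, 207 against 204 under RAC1i and 222 against 222 under Combo, and RAC1 itself at 476 CPM against 456 under DMSO, 650.2 against 598 under RAC1i and 627 against 586 under Combo. EED, a partner of EZH2 in the Polycomb complex, was the highest of the drug target list, which leaves out EZH2 itself, at 19.9 CPM against 14.6 under DMSO, 18.0 against 14.1 under RAC1i and 16.0 against 14 under Combo.

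Genes of respiration had smaller medians than the replication lists. The nuclear respiratory chain list had medians of 0.06 under DMSO, 0.18 under RAC1i and 0.09 under Combo, and none of its 30 genes was over 1.5-fold higher or lower in any library. Of all genes outside the score, 2.88%, 2.48% and 2.22% were that much higher and 0.713%, 1.02% and 1.05% that much lower, so few calls among 30 genes would be usual. SDHB, of complex II, was the lowest with 1.01, 0.955 and 0.964. The mitochondrial genome list had -0.00 under DMSO, 0.30 under RAC1i and 0.06 under Combo, under RAC1i the same sign for all 13 genes, beside the higher median mitochondrial share of synthesis-high cells there. MT-ND6 was highest at 1.17, 1.35 and 0.965 and MT-ND5 lowest at 1.00, 1.19 and 0.947. Cholesterol biosynthesis had -0.02 under DMSO, 0.25 under RAC1i and 0.27 under Combo, with EBP, a sterol isomerase, at 1.2, 1.32 and 1.31. The epithelial markers had 0.05 under DMSO, 0.25 under RAC1i and 0.18 under Combo, with KRT7 at 1.04, 1.28 and 1.2 and MUC16 at 0.910, 1.15 and 0.989. All 4 lists were measured beside all-gene medians of 0.01, 0.07 and 0.07.

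Synthesis-high cells were then compared between conditions, with both treated libraries set against the same DMSO library. In these cells 939 of 8748 genes were over 2-fold higher under RAC1i (10.7%) and 1704 over 2-fold lower (19.5%). In Combo 859 of 8725 were higher (9.85%) and 1613 lower (18.5%). The excess of lower genes depended on the scaling: with TMM totals there were 1301 higher and 1155 lower under RAC1i and 1225 higher and 1093 lower under Combo, and with DESeq2 size factors 1329 higher and 1164 lower and 1222 higher and 1113 lower. The median log2 ratio of all genes was -0.14 and -0.13, and these scalings raised it by 0.24 and 0.25 (TMM) and 0.24 and 0.24 (DESeq2).

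The top 10% of the treated cultures stood lower in replication genes than the top 10% of DMSO. The 106 replication genes had medians of -0.80 under RAC1i and -0.72 under Combo, with 35 of 103 and 30 of 103 over 2-fold lower and 1 over 2-fold higher in each, beside 19.5% and 18.5% of all genes over 2-fold lower and 10.7% and 9.85% over 2-fold higher. Within the treated libraries only 90 of these genes reached 10 CPM under RAC1i and 91 under Combo. Those that reached it in DMSO synthesis-high cells alone had a ratio below 1 by construction. Without this minimum the medians were -0.80 under RAC1i and -0.71 under Combo. In the rest the medians were -0.69 under RAC1i and -0.53 under Combo, over an unlike set of 93 genes. The list medians in synthesis-high cells were -0.56 under RAC1i and -0.57 under Combo for licensing and helicase, -0.75 under RAC1i and -0.49 under Combo for polymerases, -0.83 under RAC1i and -0.83 under Combo for nucleotide synthesis, -0.84 under RAC1i and -0.77 under Combo for checkpoint and repair and -1.04 under RAC1i and -0.76 under Combo for chromatin assembly. G2 and mitosis genes had -0.85 under RAC1i and -0.88 under Combo. In the rest, under RAC1i and Combo, licensing and helicase had -0.62 and -0.46, polymerases -0.44 and -0.52, and nucleotide synthesis -1.01 and -0.92. There checkpoint and repair had -0.54 and -0.39, chromatin assembly -0.73 and -0.45, and G2 and mitosis -0.54 and -0.57. When treated cells had to reach the DMSO score limit, which left 80 cells of RAC1i and 56 of Combo, the replication medians were -0.22 and -0.22.

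The genes of one pathway had unequal ratios. CDC45 was lower by ratios to DMSO of 0.220 (0.193 to 0.251) under RAC1i and 0.24 (0.212 to 0.272) under Combo, MCM4 of 0.252 (0.232 to 0.273) and 0.233 (0.213 to 0.253), and E2F1 of 0.278 (0.255 to 0.302) and 0.319 (0.294 to 0.346). In these genes the treated synthesis-high cells lay below even the rest of DMSO. The levels were 13.3 and 14.5 CPM against 21.4 for CDC45, 33.3 and 30.7 against 54.0 for MCM4, and 32.8 and 37.6 against 45.7 for E2F1. In BRCA1, PRIM1 and CHEK1 they lay above it. Among score genes MCM5 had 0.321 (0.286 to 0.36) and 0.340 (0.304 to 0.381) and PCNA 0.340 (0.317 to 0.365) and 0.351 (0.327 to 0.376). PCLAF had 1.14 (1.1 to 1.18) and 1.02 (0.981 to 1.05), and CDC6 1.22 (1.12 to 1.32) and 1.18 (1.09 to 1.28). CHEK1 was above DMSO with 1.42 (1.29 to 1.56) and 1.44 (1.30 to 1.58), and POLE3 with 2.42 (2.23 to 2.64) and 2.53 (2.32 to 2.75). EZH2 had 0.401 (0.363 to 0.443) and 0.498 (0.454 to 0.547). CCND1 had 2.92 (2.81 to 3.04) and 2.17 (2.08 to 2.26).

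**Figure D5:**
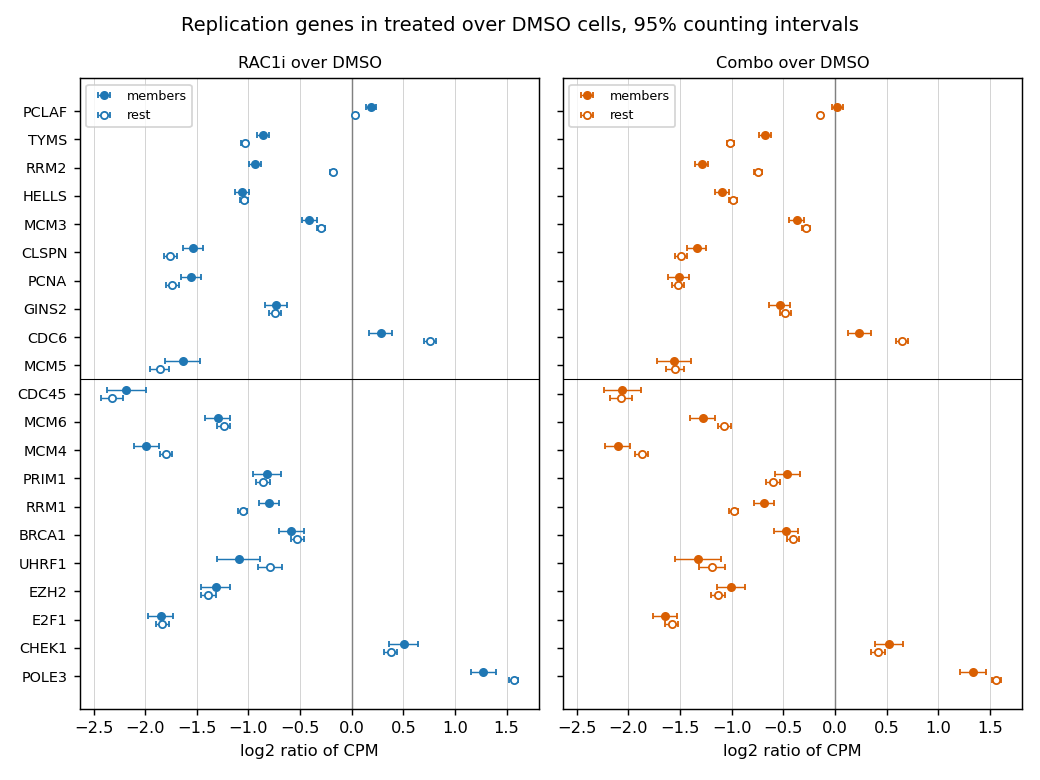
Log2 ratio of CPM under RAC1i over DMSO (left) and Combo over DMSO (right) for the 10 score genes (above the line) and 11 named replication and G1/S genes (below), in synthesis-high cells (filled, members) and in the rest (open), with exact 95% intervals; both panels use the same DMSO library. CDC45 and MCM4 lie furthest to the left and POLE3 furthest to the right. RRM2, whose UMIs helped to choose the cells, lies lower in synthesis-high cells, 0.523 and 0.409, than in the rest, 0.882 and 0.597.

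RRM2 and CDC6 were the score genes whose treated-to-DMSO ratio differed most between synthesis-high cells and the rest. Their UMIs helped to choose the cells, so this contrast depends on the selection and is not a separate result. RRM2 had 0.523 (0.501 to 0.545) in RAC1i synthesis-high cells and 0.882 (0.863 to 0.902) in the rest, and under Combo 0.409 (0.391 to 0.428) and 0.597 (0.582 to 0.613). CDC6 had 1.22 and 1.69 under RAC1i and 1.18 and 1.57 under Combo. Among histones HIST1H1D, a linker histone, had the lowest ratio to DMSO of any gene with at least 50 CPM in RAC1i synthesis-high cells, from 66.7 CPM under DMSO to 2.85 under RAC1i, with 4.35 under Combo, while HIST1H4C had ratios of 0.983 and 1.21. In the rest HIST1H1D went from 17.9 to 0.785 and 1.06 CPM.

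The highest ratios to DMSO in synthesis-high cells belonged mainly to metallothioneins. The metal-binding metallothionein MT2A went from 119.7 CPM under DMSO to 5831 under RAC1i and 8181 under Combo, and MT1X from 48.9 to 1831 and 2601. MT1B had 0 UMIs under DMSO, which allows up to 0.164 CPM (3 counts over these cells), and was at 51.7 and 114 CPM under RAC1i and Combo. MT1G was at 0.0547 CPM under DMSO, a single UMI, and at 40.6 and 66.4 in the treated synthesis-high cells, against 17.5 and 35.6 in the rest. KLK15, a kallikrein protease, went from 0.765 to 82.5 and 70.0, and the transcript AC095055.1 from 0.219 to 94.5 and 66.5. CXCL1 had ratios of 6.15 (5.72 to 6.63) and 3.64 (3.37 to 3.93) in synthesis-high cells and 10.1 and 5.76 in the rest. SIRT7 had 5.18 (4.79 to 5.60) and 5.55 (5.14 to 6.01).

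Among the 5 lowest ratios to DMSO in at least 1 treated library were also those of TSHR, the thyrotropin receptor, from 74.2 CPM to 3.52 under RAC1i and 2.18 under Combo, and of the trafficking adaptor RAB11FIP4, from 199 to 12.3 and 8.0. The isocitrate dehydrogenase IDH1 went from 134 to 8.47 and 10.4, and TMEM100 from 119 to 7.49 and 4.27. CDH6, a cadherin, went from 516 to 37.5 and 24.4, with 593, 21.7 and 16.5 CPM in the rest. LMO3 went from 51.5 to 3.34 and 1.96. PAX8 had ratios of 0.246 (0.232 to 0.260) and 0.200 (0.188 to 0.213) in synthesis-high cells and 0.145 (0.142 to 0.148) and 0.128 (0.125 to 0.131) in the rest. The mitochondrial genome list had medians of -1.53 under RAC1i and -1.77 under Combo and cholesterol biosynthesis -1.49 under RAC1i and -1.27 under Combo, beside -1.89 under RAC1i and -1.80 under Combo and -1.68 under RAC1i and -1.53 under Combo in the rest.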

How the data were processed

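Droplet 3′ libraries of OVCAR3 cells treated with DMSO, RAC1i or Combo were sequenced by the authors, who deposited UMI counts per gene and barcode (Cell Ranger 4.0.0, human reference GRCh38, whole-number counts, not normalized). The libraries held 207349619, 254860917 and 240453917 UMIs in 10071, 11772 and 9757 barcodes. Kept cells had more than 1000 genes detected, no more than 20% of UMIs from mitochondria and a ratio of log10 genes to log10 UMIs above 0.8, and numbered 7531, 10215 and 8239. Of these, 5871, 7983 and 6437 had at least 10000 UMIs. EZH2i without RAC1i was not analysed here.

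UMIs were summed over synthesis-high cells and over the rest, divided by their totals and set against each other as log2 of CPM plus 1, for genes reaching 10 CPM in either sum. Calls were ratios over 1.5-fold (against the rest) or 2-fold (against DMSO). Intervals at 95% are exact (Poisson for sums, conditional binomial for ratios, Clopper-Pearson for shares), and since PCR duplicates were removed by UMI but cells vary, they cover counting error only. With 1 library per condition no test was run. Named genes were the score genes, the highest and lowest gene of each list, genes the study names, RAC1, EZH2, the 15 highest and 10 lowest genes in all libraries, the 5 largest rises and falls from DMSO among genes with at least 50 CPM, and genes whose sequence is printed. Some of these are not reported here. Others were named after their values were seen: ORC1, ORC3, ORC4, ORC5, ORC6, MCM7, FEN1, DUT, TK1, EXO1, DNMT1, CCNE2, E2F7, RBL1, MYBL2, CDK6, CCND3, CDK4, HIST1H4C, HIST2H2BE, HIST1H1C, MKI67, CDK1, AURKB, CCNB1, HMMR, CDKN3, CCNB2, DTL, MSH6, ID1, GADD45B, IL6 and, in the closing observations, all genes. The cells and the lists were chosen with earlier results of these data known. Doublets were neither called nor removed, and an alternative left out the 8% of cells with the most UMIs.

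Alternatives changed the filters, depth, share of cells, score genes, scaling (edgeR 4.0.16 TMM, DESeq2 1.42.0 size factors), CPM minimum and added constant. A scaling without mitochondrial genes and the removal of cells high in mitotic genes were chosen after seeing the data. Python 3.11.15, numpy 2.4.6, scipy 1.17.1, pandas 2.3.3 and R 4.3.3 were used, and the steps were tested on simulated data.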

Additional observations from a re-analysis of the deposited data

Results flagged for a closer look

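For 3 genes named or on a list, PAX8, CXCL8 and HIST1H1C, the counting interval of the ratio of synthesis-high cells to the rest lay more than 1.2-fold to one side under DMSO and more than 1.2-fold to the other side in a treated library. The ratio for PAX8 was 0.751 under DMSO, 1.28 under RAC1i and 1.17 under Combo. That for CXCL8 was 1.54, 0.42 and 0.925, from levels of 5.19 against 3.36 CPM under DMSO. That for HIST1H1C was 1.34, 0.698 and 0.724. LMO3 also stood on both sides, at 0.806, 1.70 and 1.18, but its interval under DMSO, 0.753 to 0.861, came nearer to 1 than this. KLK15 had ratios of 1.29, 0.786 and 0.788, but its interval under DMSO, 0.681 to 2.26, includes 1, so it has no clear side there. The differences between libraries were not tested, since each condition is 1 library.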

How the results depend on the processing

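Of 183 recomputed list medians and counts, 159 stayed within 1.5 times a count or within the spread of a median, and 24 moved. The number of genes over 1.5-fold higher became 514 in RAC1i and 346 in Combo with the top 5% of cells, and 86 and 111 with the top 20%. It became 345 and 366 with the score from MCM3, MCM5, PCNA, GINS2 and CDC6 alone, and 119 in RAC1i with the other 5 genes. With TMM it was 126 in DMSO and 110 in RAC1i, and with DESeq2 size factors 114 in RAC1i. The median log2 ratio of replication genes outside the score became 0.51 in RAC1i with the top 20%, 0.49 in Combo with the score from HELLS, PCLAF, TYMS, RRM2 and CLSPN, 0.63 in DMSO and 0.52 in Combo with TMM, and 0.52 in Combo with DESeq2. Against DMSO it became -0.60 (RAC1i) and -0.52 (Combo) with TMM, -0.60 and -0.52 with DESeq2, and -0.22 and -0.22 at the common DMSO limit, which by construction keeps 80 and 56 higher-scoring cells. Without cells high in mitotic genes the G2 and mitosis median became 0.54, 0.27 and 0.41 in DMSO, RAC1i and Combo, a rise fixed by construction, since these cells were chosen by the same genes and lie mostly in the rest. Apart from these and the common limit, the cause was not tested. Of 5775 recomputed values of 75 named genes, 1928 moved outside their counting interval and 167 changed sign, all but 9 of them values under 1.5-fold. The 9 are among 3468 recomputed from reported values over 1.5-fold. CXCL2 in Combo over DMSO was 0.15 with thinned cells. MT1G over the rest in Combo was -0.32 with the score from the MCM and PCNA genes, and DEPDC1 was 0.13 without cells high in mitotic genes. At the common limit MCM10 (0.063), POLD3 (0.20), CHAF1A (0.028) and SIRT1 (-0.21) changed sign in RAC1i over DMSO, and WDHD1 (0.010) and HIST1H4H (-0.058) in Combo over DMSO.

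No paired analysis was possible because each condition is 1 library, and there was no replicate to leave out. Thinned to 10000 UMIs, 71.9%, 68.4% and 65.5% of synthesis-high cells were chosen again.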

Other observations

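Of the 33 genes on no list that were over 1.5-fold higher in synthesis-high cells of every library, those given here were picked after their values were seen, and no theme was tested. The ratios to the rest under DMSO, RAC1i and Combo of the kinetochore genes among them were 1.73, 2.08 and 2.02 for CENPK, 1.96, 1.98 and 1.97 for CENPM, 1.91, 1.82 and 1.90 for DSN1, 1.70, 1.73 and 1.83 for ZWINT and 2.05, 2.16 and 1.87 for KNTC1. PKMYT1, a kinase that inhibits CDK1, had 2.45, 2.51 and 2.24, and MASTL, a kinase that keeps mitotic phosphorylation in place, 2.17, 1.71 and 1.86. The nuclear lamina gene LMNB1 had 1.55, 1.93 and 1.92 and TMPO, a lamina-associated protein, 1.59, 1.80 and 1.75. WDR76 had 3.18, 2.27 and 2.41, FAM111A, a protease that acts at replication forks, 2.15, 1.72 and 1.83, and RBBP8, which starts DNA end resection, 1.70, 1.60 and 1.68. TEX15, known from the germ line, was at 43.5 CPM against 18.6 under DMSO, 15.1 against 6.21 under RAC1i and 17.4 against 6.78 under Combo, and HES4, a relative of HES1, had ratios of 1.70, 2.49 and 2.12, on the other side of the rest from HES1 under RAC1i and Combo.

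Kept cells with fewer than 10000 UMIs were outside the selection. Of these, 257 of 1660 under DMSO (15.5%), 323 of 2232 under RAC1i (14.5%) and 272 of 1802 under Combo (15.1%) reached the score limit of their library. A score from fewer UMIs spreads more by counting error, and the part of this in these shares was not tested.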
